A study of Mus musculus with 68 samples.

Results

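Expression of 10 genes of the bone morphogenetic protein (BMP) pathway was followed across 68 libraries of mouse pharyngeal arches. The genes are the ligands Bmp2, Bmp4, Bmp5 and Bmp7, the secreted modulators Bmper, Chrd, Nog and Grem1, and the target genes Id1 and Id3. They were taken as the rows of the deposited table whose Ensembl identifiers carry those symbols, which gave 10 of 21948 genes. Pharyngeal arch 1 (PA1) forms the jaws, and pharyngeal arch 2 (PA2), the next arch toward the tail, forms parts of the hyoid and the stapes. The arches, both of them in 33 of 35 embryos, came from embryos of the cross CBA/Ca/J x C57BL/10, labelled wildtype or Hoxa2-/-, at 4 stages of embryonic development (E9.0 and E9.5, then E10.0 and E10.5). Hoxa2 is a homeobox gene expressed in PA2 and not in PA1. In that order, wildtype PA1 is represented by 5, 5, 5 and 3 libraries and wildtype PA2 by 4, 4, 5 and 3. The label Hoxa2-/- had 4, 5, 5 and 3 libraries of each arch. No Cre, transgene or other agent is named, so the groups differ in their labels by genotype, arch and stage alone. All stages came from whole arches, in which fewer cells of a type and less RNA per cell cannot be told apart.

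BMPs are secreted proteins of the TGF-beta family that bind paired type I and type II receptors, after which Smad1, Smad5 and Smad9 carry the signal to the nucleus. Chordin, noggin and gremlin bind BMPs outside the cell and keep them from the receptors, while Bmper, a chordin-like protein, can dampen or promote the signal. Id genes are direct targets of the pathway and encode proteins that block basic helix-loop-helix factors. In the arches Bmp4 is known for its expression in surface epithelium and distal mesenchyme, where it takes part in patterning of the lower jaw.

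Reads recovered from the table numbered 8912251 to 20619153 per library. Values are read counts scaled by the authors to a common library size (CPM), and 3 reads were worth at most 0.328 CPM. Hoxa2 RNA in PA2 was at 20.2 to 63.3 CPM in wildtype libraries and at 16.8 to 147 CPM in libraries labelled Hoxa2-/-. In PA1 it stayed below 1 CPM under both labels. These counts cannot show whether the transcript is functional. Pitx1 had a mean of 48.3 CPM in wildtype PA1 at E10.5. In PA2 of that stage it had 0.259 to 1.00 CPM in wildtype and 4.80 to 7.86 CPM under the label (n = 3 each). These ranges overlapped at each earlier stage, with 0.208 to 1.41 and 1.22 to 3.37 CPM at E10.0. The label is used only as a name, and the altered part of the gene is not given in the sources used here. Ski and Irf2bp2, a pair of genes chosen after their values were seen, divided the libraries: the 24 wildtype libraries outside E10.0 had 26.3 to 108 CPM of Ski, and the other 44 libraries had 9.28 to 22.8 CPM. Only at E10.0 were both labels on the same side of this division. Markers of heart muscle, red cells, yolk sac and epithelium varied between libraries. Marker values are given beside results they move with, and lists that went another way are not given in every case.

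Levels were compared between genes per kilobase of merged exon (GENCODE M21, GRCm38). The median over the 16 groups was highest for the targets, at 199 CPM per kb for Id3 and 103 CPM per kb for Id1. Among the ligands it was 14.99 for Bmp7, 11.2 for Bmp4, 1.92 for Bmp5 and 0.846 for Bmp2. The modulators were low, at 1.54 for Bmper, 0.602 for Nog, 0.289 for Grem1 and 0.237 for Chrd. Group ranges of neighbours in this order overlapped for Id3 (123 to 295) and Id1 (52.5 to 174), for Bmp7 (10.2 to 20.2) and Bmp4 (8.22 to 32.3) and for Bmp5 (1.05 to 3.86) and Bmp2 (0.270 to 4.02). They also overlapped for each neighbouring pair of modulators, with Bmper at 0.519 to 4.96, Nog at 0.253 to 1.07, Grem1 at 0.0835 to 0.707 and Chrd at 0.131 to 0.403. Compared within the same group, Id3 was above Id1 and Bmper was above Nog in every group. The order within the other pairs changed between groups. All 10 genes passed the filter of 1 CPM in at least 3 libraries. For Grem1 that level was reached in 30 of 33 PA2 libraries and in 3 of 35 PA1 libraries, and it had 3 reads or fewer in 5 libraries.

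The modulators Bmper and Grem1 passed as higher in PA2 than in PA1 in 6 and 7 of the 8 combinations of stage and label. In each of the 33 embryos with both arches, the PA2 library had more of Bmper and more of Grem1 than the PA1 library, and Chrd was higher in PA2 in 30 of 33. Nog was higher in PA2 in 21 of 33 embryos, and it passed the test in none of the 8 arch contrasts. Here and below, counts of embryos, of contrasts passed by 1 gene and of groups without overlap have no share of all genes beside them. How unusual such counts are among all genes was not tested. The test was limma's moderated test on log2(CPM + 1), adjusted over 18428 genes, and all adjusted p-values come from it unless another tool is named. In wildtype embryos 3 of the 10 genes passed at E9.0 (Bmp4, Bmper and Grem1, all higher in PA2) against 18.7% of all genes tested. At E9.5 3 passed (Chrd, Bmper and Grem1) against 26.3%, a count near the background. At E10.0 5 passed (Chrd, Bmper and Grem1 higher, Id1 and Id3 lower) against 5.94%, and at E10.5 1 passed (Grem1) against 1.52%. Under the label Hoxa2-/- the counts in stage order were 5 (against 24.6%), 1 (against 9.58%), 2 (against 4.23%) and 2 (against 1.37%), of which that at E9.5 is near the background.

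**Figure D1:**
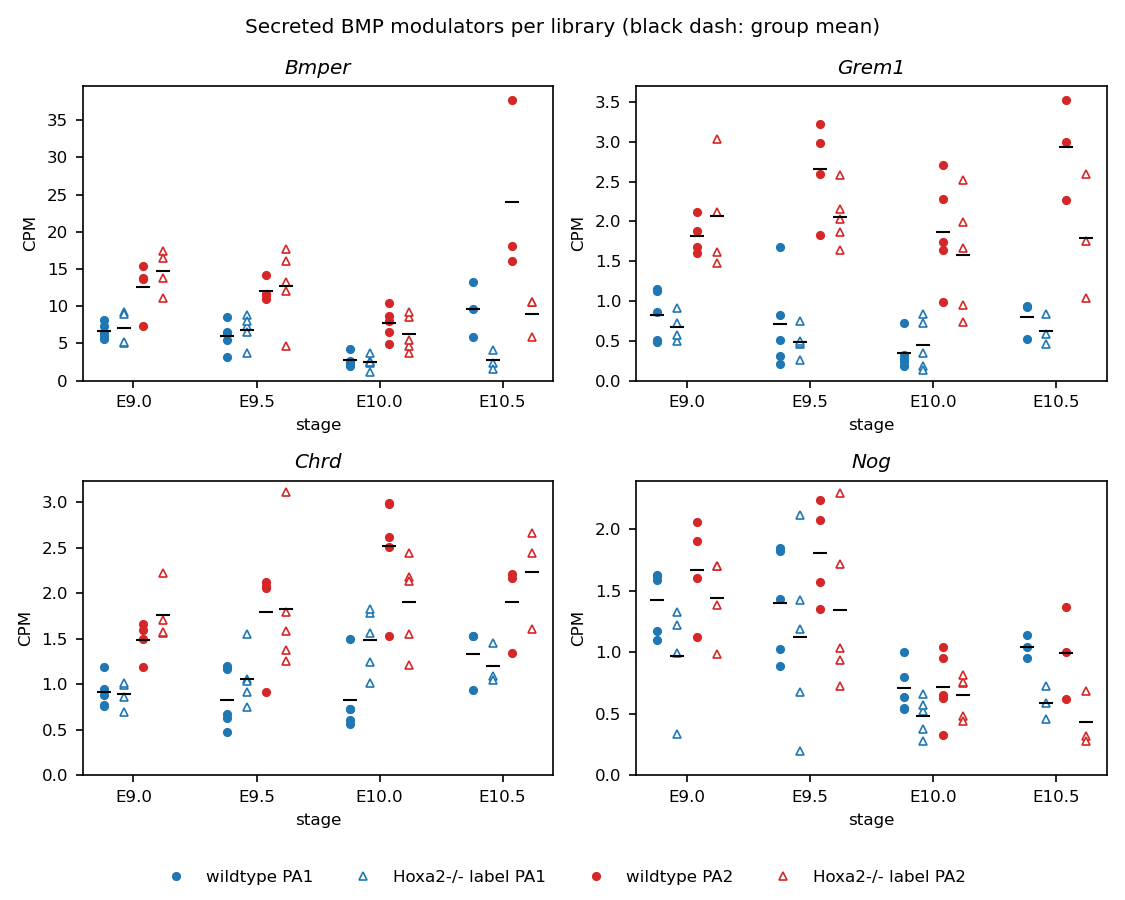
Secreted modulators in CPM (linear axis from 0) by stage, with 1 point per library, PA1 in blue, PA2 in red, filled circles for wildtype, open triangles for the label Hoxa2-/- and black dashes for group means. The red points of Bmper and Grem1 lie mostly above the blue ones at every stage, while those of Nog overlap them.

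Bmper (ENSMUSG00000031963, chr9:23223076-23485200, plus strand) encodes a secreted protein with chordin-like cysteine-rich repeats. At E10.0 wildtype PA1 libraries had 2.00, 2.67, 2.32, 4.28 and 2.46 CPM. Wildtype PA2 libraries of that stage had 8.04, 8.70, 4.91, 6.59 and 10.4 CPM. The groups did not overlap, and the means differed 2.81-fold (log2 difference 1.21 ± 0.26 SE, adjusted p = 0.0011). With the label Hoxa2-/- the means at E10.0 were 2.51 ± 0.899 CPM in PA1 and 6.29 ± 2.43 CPM in PA2 (SD, n = 5 each; 1.03 ± 0.26, adjusted p = 0.011). That difference kept its direction but missed the threshold without PA1 of embryo 2 (0.87, adjusted p = 0.0703), PA2 of embryo 1 (0.92, adjusted p = 0.0595) or PA2 of embryo 4 (0.89, adjusted p = 0.0573). The highest group was wildtype PA2 at E10.5, with 18.1, 37.8 and 16.1 CPM against 9.64, 13.2 and 5.88 CPM in PA1. There the difference of 1.20 missed the threshold (adjusted p = 0.054), and it passed with the embryo as a block (adjusted p = 0.0048), which brought the count at that stage to 2. The block also raised the calls over all genes in that contrast, from 280 to 421. Under the label Hoxa2-/- at E10.5 PA2 had 10.6, 5.92 and 10.52 CPM against 4.15, 2.42 and 1.54 CPM (1.46 ± 0.34, adjusted p = 0.009). Without PA1 of embryo 3 this was 1.22 (adjusted p = 0.152), without PA2 of embryo 1 it was 1.33 (adjusted p = 0.0827), and without PA2 of embryo 3 it was 1.34 (adjusted p = 0.0767). At the earlier stages the differences were 0.79 and 0.95 in wildtype and 0.98 and 0.74 under the label, of which the last missed the threshold (adjusted p = 0.062) and passed with the embryo block (adjusted p = 0.0099). The wildtype call at E9.0 (adjusted p = 0.039) was lost in 6 of 9 fits that left out a library, namely PA1 of embryos 1, 3 and 4 and PA2 of embryos 1, 4 and 5, with differences of 0.68 to 0.77 and adjusted p up to 0.118.

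Grem1 (ENSMUSG00000074934, chr2:113746164-113758646, minus strand) encodes gremlin, which binds Bmp2, Bmp4 and Bmp7. Its values were low and separated the arches without overlap in 7 of the 8 combinations of stage and label, all but the label Hoxa2-/- at E10.0. Wildtype PA1 libraries at E9.5 had 0.312, 0.513, 0.820, 1.68 and 0.212 CPM, and wildtype PA2 libraries had 2.99, 3.23, 1.83 and 2.59 CPM. The log2 difference was 1.14 ± 0.19 (adjusted p = 1.1e-05). Under the label Hoxa2-/- the same stage gave 0.261 to 0.747 CPM in PA1 and 1.63 to 2.59 CPM in PA2 (1.04 ± 0.18, adjusted p = 2.7e-05). Grem1 passed in 7 of 8 contrasts, with log2 differences of 0.64 to 1.14. The exception was the label Hoxa2-/- at E10.5 (0.75 ± 0.23, adjusted p = 0.11), where PA2 had 2.59, 1.04 and 1.75 CPM against 0.842, 0.588 and 0.454 CPM. In these 7 contrasts no single left-out library ended a call, but leaving out the wildtype E9.0 libraries of embryos 2 and 3 together gave 0.61 (adjusted p = 0.0905).

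Chrd (ENSMUSG00000006958, chr16:20733127-20742384, plus strand), which encodes chordin, passed at E9.5 and E10.0 in wildtype and at E9.0 under the label Hoxa2-/-, each time with more in PA2. Its largest difference was in wildtype at E10.0, where PA2 had 2.98, 1.52, 2.62, 2.99 and 2.50 CPM and PA1 had 0.727, 1.49, 0.560, 0.729 and 0.601 CPM. PA2 stood above PA1 in all 5 embryos, by 0.95 ± 0.15 on the log2 scale (adjusted p = 5.4e-06). At the same stage the label Hoxa2-/- gave 1.02 to 1.82 CPM in PA1 and 1.21 to 2.44 CPM in PA2 (0.22 ± 0.15, adjusted p = 0.5). The difference between these arch differences was -0.74 ± 0.21, which did not pass the test over all genes (adjusted p = 1, unadjusted p = 0.001). The call at E9.0 under the label (0.54, adjusted p = 0.013) was 0.47 (adjusted p = 0.0506) without PA2 of embryo 1. Nog (ENSMUSG00000048616, chr11:89300638-89302332, minus strand), which encodes noggin, ranged from 0.196 to 2.29 CPM and reached 1 CPM in 17 of 35 PA1 and 16 of 33 PA2 libraries.

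Neuron markers (6 genes, 5 tested, none at 0 throughout a group) moved with the arch differences of Bmper, Grem1 and Chrd. In stage order 2, 4, 4 and 1 of the 5 passed as higher in PA2 in wildtype, and 1, 3, 1 and 1 under the label Hoxa2-/-, with none lower. Their summed level in wildtype was 31.1 to 49.5 CPM in PA1 and 83.2 to 138 CPM in PA2 at E9.5, and 32.3 to 39.5 CPM and 65.5 to 91.7 CPM at E10.0. The sums of the arches did not overlap in any of the 8 combinations of stage and label. The part of these markers in the differences was not tested.

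**Figure D2:**
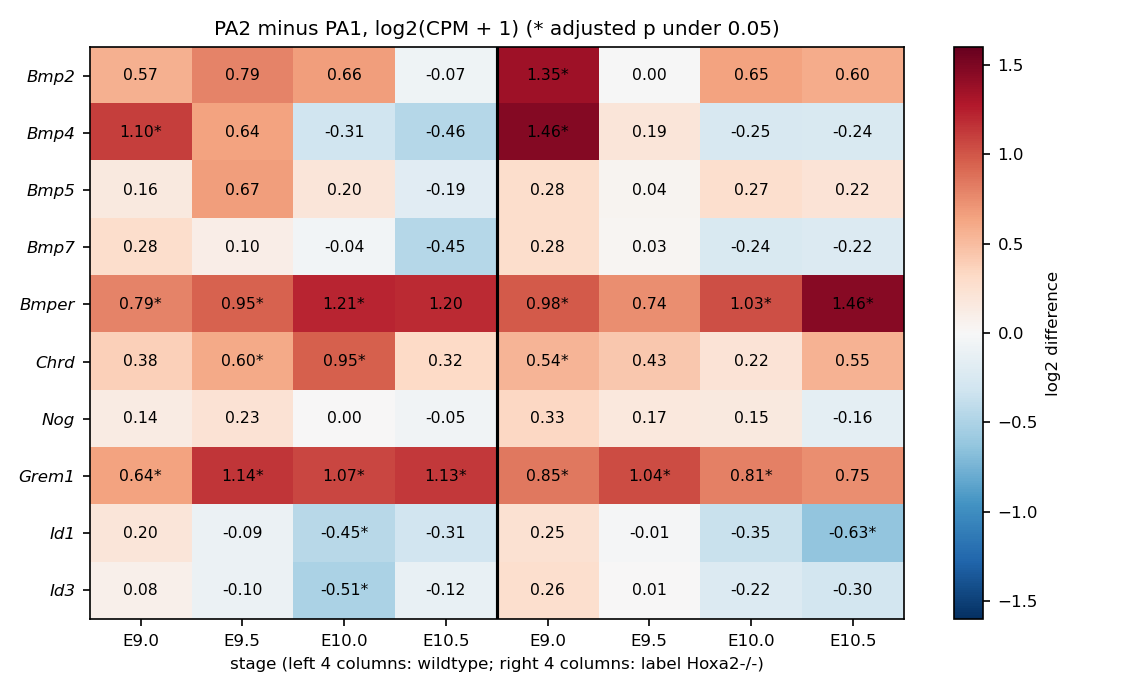
Log2 difference PA2 minus PA1 of the 10 genes (rows) at the 4 stages under each label (columns), in log2(CPM + 1) from the fit over all libraries; red is higher in PA2, blue is lower, and an asterisk marks an adjusted p under 0.05. Rows Bmper and Grem1 are red in all 8 columns, and row Bmp4 goes from red at E9.0 to pale blue from E10.0 on.

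Stretches before the start sites of the 3 modulators that were higher in PA2, and of Bmp4, are shown as examples of genes with an arch difference. Each is the 250 bases before the RefSeq start site (GRCm38.p6), 5′ to 3′ on the gene's strand. The windows are chr9:23222826-23223075 for Bmper, chr2:113758649-113758898 for Grem1, chr16:20732877-20733126 for Chrd and chr14:46390670-46390919 for Bmp4. Capitals mark matches, on either strand, to GGCGCC or GCCGNCGC, which are GC-rich motifs of BMP Smads, or to TGATNNAT, a motif of Hox and Pbx proteins.
Bmper: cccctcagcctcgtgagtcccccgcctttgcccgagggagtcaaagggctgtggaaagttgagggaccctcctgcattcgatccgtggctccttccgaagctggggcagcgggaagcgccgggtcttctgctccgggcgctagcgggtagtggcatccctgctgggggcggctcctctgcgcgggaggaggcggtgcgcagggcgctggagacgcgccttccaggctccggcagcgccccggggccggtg
Grem1: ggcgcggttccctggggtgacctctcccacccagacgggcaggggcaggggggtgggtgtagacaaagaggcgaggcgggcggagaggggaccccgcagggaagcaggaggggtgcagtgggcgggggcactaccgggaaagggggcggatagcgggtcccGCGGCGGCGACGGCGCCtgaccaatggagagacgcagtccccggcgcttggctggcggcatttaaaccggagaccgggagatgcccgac
Chrd: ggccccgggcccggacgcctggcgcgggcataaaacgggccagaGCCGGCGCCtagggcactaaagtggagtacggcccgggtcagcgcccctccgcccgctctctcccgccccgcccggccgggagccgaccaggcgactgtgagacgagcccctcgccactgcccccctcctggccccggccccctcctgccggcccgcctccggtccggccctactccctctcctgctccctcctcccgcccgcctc
Bmp4: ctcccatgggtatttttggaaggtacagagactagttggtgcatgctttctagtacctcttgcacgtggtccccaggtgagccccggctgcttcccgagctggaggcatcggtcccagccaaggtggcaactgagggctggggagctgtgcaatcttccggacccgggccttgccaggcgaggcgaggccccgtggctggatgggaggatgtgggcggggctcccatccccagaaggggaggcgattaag
Chrd held GGCGCC at position -203 and GCCGNCGC at -206, counted from the start site, and these matches overlap. Grem1 held GGCGCC at -78 and GCCGNCGC at -89 and -83, also overlapping. Among 32851 RefSeq windows of the same length, 9.59% held GGCGCC, 6.89% held GCCGNCGC and 7.68% held TGATNNAT. The letters searched were not in the windows of Bmper and Bmp4. They were also not in the window of Id3, which passed as lower in PA2 in wildtype at E10.0. The window of Bmp5, which passed in no arch contrast, held TGATNNAT at -147. A match describes letters only, and no binding was measured. GC content was 71.6% for Bmper, 72.0% for Grem1, 78.0% for Chrd and 63.2% for Bmp4.

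Among the ligands, Bmp4 (ENSMUSG00000021835, chr14:46383520-46390669, minus strand) had the largest arch difference on the log2(CPM + 1) scale, and it was at E9.0. Wildtype PA2 libraries had 58.3, 32.3, 49.0 and 47.6 CPM. Wildtype PA1 libraries had 21.8, 18.4, 19.3, 27.1 and 18.8 CPM, so the groups did not overlap. The means differed 2.22-fold (1.10 ± 0.26, adjusted p = 0.0012). Under the label Hoxa2-/- PA2 had 88.8, 64.1, 46.0 and 92.0 CPM and PA1 had 25.5, 22.2, 28.3 and 23.5 CPM, a 2.92-fold difference (1.46 ± 0.27, adjusted p = 4.6e-05). Both calls held whichever library was left out. At E10.0 the estimate was below 0, with 21.04 ± 6.52 CPM in wildtype PA2 and 25.5 ± 2.31 CPM in PA1 (SD, n = 5 each), a difference of -0.31 that did not pass (adjusted p = 0.53). At E10.5 wildtype PA2 had 21.1, 20.1 and 17.1 CPM, all below the 23.1, 30.8 and 27.3 CPM of PA1, and the difference of -0.46 did not pass (adjusted p = 0.98).

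Heart muscle markers (6 genes, 5 tested, none at 0 throughout a group) moved with this difference. All 5 passed as higher in PA2 at E9.0 under both labels, 3 passed at E9.5, and none passed later. Their summed level at E9.0 was 15.4 to 35.4 CPM in wildtype PA1, 51.3 to 828 CPM in wildtype PA2, 21.5 to 46.1 CPM in PA1 labelled Hoxa2-/- and 97.8 to 849 CPM in PA2 labelled Hoxa2-/-. The PA2 library with the lowest sum in each label, wildtype embryo 2 (51.3 CPM) and embryo 3 labelled Hoxa2-/- (97.8 CPM), also had the lowest Bmp4 of its group, at 32.3 and 46.0 CPM. Both of those Bmp4 values were above every PA1 library of their label and stage. Wildtype PA2 of embryo 2 also had 63564 CPM of red cell markers, against 3283 CPM in the lowest library of its group, and all 6 red cell markers passed as higher in PA2 in that contrast. Leaving out the wildtype E9.0 libraries of embryos 2 and 3 reduced the count of called genes from 3 to 1. The sum of neuron markers in wildtype at E9.0 was 32.8 to 47.1 CPM in PA1 against 99.3 to 188 CPM in PA2. Arch ectomesenchyme markers were lower there, with 5 of 6 passing, at 499 to 572 CPM in PA1 and 333 to 385 CPM in PA2. The part of these markers in the differences was not tested.

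Bmp2 (ENSMUSG00000027358, chr2:133552159-133562885, plus strand) passed in 1 of 8 arch contrasts, the label Hoxa2-/- at E9.0, as higher in PA2. There PA2 had 14.8, 11.7, 9.09 and 21.5 CPM and PA1 had 4.12, 3.84, 6.37 and 4.92 CPM (1.35 ± 0.40, adjusted p = 0.0095). The ratio of these means, 2.97, was slightly above the 2.92 of Bmp4 in the same contrast. Without PA2 of embryo 4 the difference was 1.14 (adjusted p = 0.0517). In the wildtype at E9.0 PA1 of embryo 4 had 21.05 CPM of Bmp2 against 2.98 to 7.02 CPM in the other 4, and that library had the highest sum of epithelial markers of its group, 1121 CPM. Bmp5 (ENSMUSG00000032179, chr9:75775364-75900310, plus strand) and Bmp7 (ENSMUSG00000008999, chr2:172868012-172940321, minus strand), ligands that can pair with other BMPs, passed in none of the 8 arch contrasts. Bmp5 in wildtype at E9.5 missed the threshold without overlap of the groups, with 8.85 to 11.3 CPM in PA2 and 4.50 to 7.87 CPM in PA1 (0.67, adjusted p = 0.053). With the embryo as a block, Bmp5 (0.73, adjusted p = 0.039), Bmp4 (0.69, adjusted p = 0.046) and Bmp2 (0.92, adjusted p = 0.0495) passed at that stage, and the count rose from 3 to 6. The Bmp4 mean of wildtype PA2 at E9.5 rests on embryo 3, with 72.1 CPM against 25.4 to 33.2 CPM in the other 3. That library had 695 CPM of heart muscle markers against 48.8 to 158 CPM in the others, and without it the difference fell from 0.64 to 0.31.

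**Figure D3:**
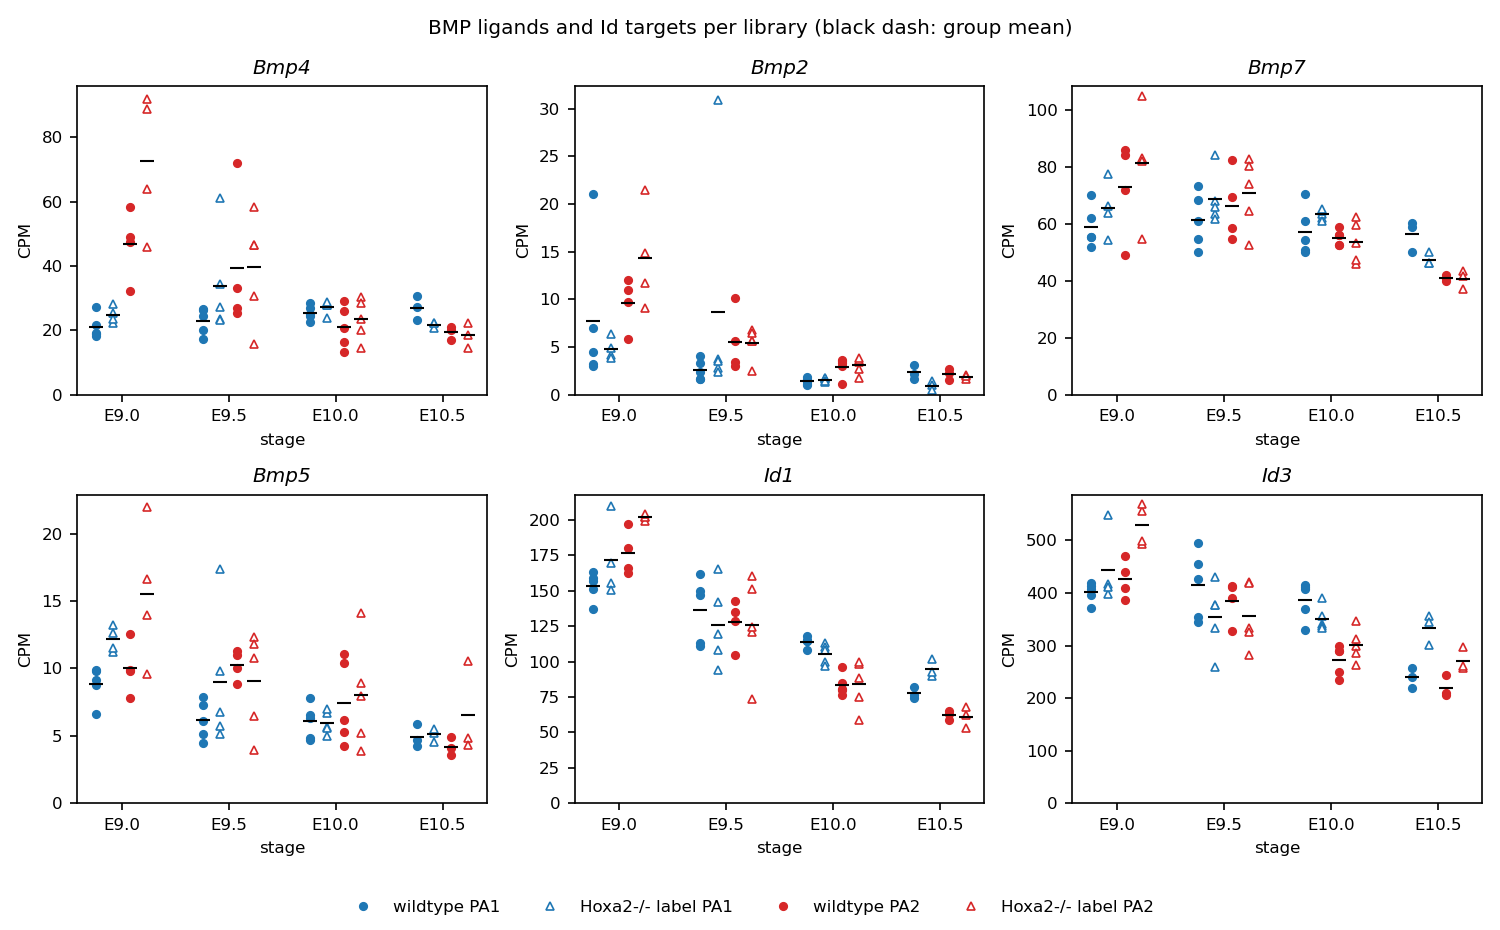
Ligands and Id targets in CPM (linear axes from 0) by stage, with 1 point per library, PA1 in blue, PA2 in red, filled circles for wildtype, open triangles for the label Hoxa2-/- and black dashes for group means. The PA2 means of Bmp4 are highest at E9.0 (libraries at 32.3 to 92.0 CPM), mean Id1 falls from stage to stage in all 4 series of groups, and single high libraries of Bmp2 stand at 21.05 and 30.9 CPM.

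Both targets passed as lower in PA2 in wildtype at E10.0, and Id1 also did so under the label Hoxa2-/- at E10.5. Id3 (ENSMUSG00000007872, chr4:136143497-136145755, plus strand) was lower in wildtype PA2 at E10.0, with 289, 249, 233, 290 and 298 CPM against 408, 415, 330, 411 and 370 CPM in PA1. The groups did not overlap, and the log2 difference was -0.51 ± 0.10 (adjusted p = 0.00055). Id1 (ENSMUSG00000042745, chr2:152736251-152737410, plus strand) had 76.3 to 96.4 CPM in PA2 and 108 to 118 CPM in PA1 at the same stage (-0.45 ± 0.13, adjusted p = 0.025). That Id1 call was lost without PA1 of embryo 2, 4 or 5 or PA2 of embryo 1 or 2, with differences of -0.45 to -0.42 and adjusted p up to 0.0707. Under the label Hoxa2-/- Id1 was lower in PA2 at E10.5, at 53.0, 61.9 and 67.8 CPM against 89.5, 102 and 92.8 CPM (-0.63 ± 0.17, adjusted p = 0.035). It lost the call in 5 of 6 fits without 1 library, all but that without PA2 of embryo 3, with adjusted p up to 0.274. The other contrasts of these stages did not pass. In wildtype at E10.5 Id1 was at -0.31 (adjusted p = 0.785) and Id3 at -0.12 (adjusted p = 1), and under the label Id3 was at -0.22 at E10.0 (adjusted p = 0.252) and -0.30 at E10.5 (adjusted p = 0.419). Arch ectomesenchyme markers moved with both targets in wildtype at E10.0, where 2 of 6 passed as lower in PA2 and 0 as higher, and their sum was 571 to 716 CPM in PA1 and 426 to 508 CPM in PA2. Under the label at E10.5 0 of these 6 passed in either direction. Their part in the differences was not tested. In all 16 embryos of E10.0 and E10.5 Id1 was lower in PA2 than in PA1, and the same held for Id3. At E9.0 both targets were higher in PA2 in 7 of 8 embryos. Arch ectomesenchyme markers went the other way at that stage, with 5 of 6 passing as lower in PA2 in wildtype. Under the label 3 of 6 passed as lower and 1 as higher. With the embryo as a block Id1 also passed under the label at E10.0 (-0.35, adjusted p = 0.118 without the block and 0.0113 with it), and Id3 passed as higher in PA2 under the label at E9.0 (0.26, adjusted p = 0.0912 without and 0.021 with it).

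Of 39 other genes of the pathway, 34 were tested. The others were below the filter or are not analysed here. In wildtype, in stage order, 9, 11, 6 and 3 were higher in PA2 and 5, 0, 6 and 5 were lower, against 18.7%, 26.3%, 5.94% and 1.52% of all genes in either direction, so that the 11 of 34 at E9.5 are near the background. Under the label Hoxa2-/- 8, 7, 6 and 1 were higher and 3, 3, 3 and 3 were lower, against 24.6%, 9.58%, 4.23% and 1.37%. The median log2 difference of the 34 genes in wildtype was -0.03, 0.18, 0.13 and 0.04 in stage order, beside -0.01, 0.01, -0.02 and -0.01 over all genes tested. Chrdl1, another chordin-like antagonist, passed as higher in PA2 in all 8 contrasts. It had 10.0 ± 1.90 CPM in wildtype PA1 and 19.5 ± 3.96 CPM in PA2 at E10.0 (SD, n = 5 each; 0.89 ± 0.14, adjusted p = 9.4e-06). Bmp6, a ligand, was higher in wildtype PA2 at the 3 earlier stages by 0.95 to 1.04. Bmp1, a protease that cleaves chordin, was higher by 0.38 to 1.01 at the same 3 stages. Rgmb, a co-receptor, was higher by 0.50 to 0.68 from E9.5 on. Id4 was higher in PA2 by 1.21 or more at the first 3 wildtype stages, while Msx1 was lower at all but E9.5, with a difference of -1.54 ± 0.23 at E10.5 (adjusted p = 2.8e-06).

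Whether the arch difference itself changed with stage was tested as the PA2 minus PA1 difference at E10.5 less that at E9.0, a contrast chosen after the values were seen. Bmp4 passed under both labels, at -1.56 ± 0.40 in wildtype (adjusted p = 0.015) and -1.70 ± 0.41 with the label Hoxa2-/- (adjusted p = 0.0066). In the wildtype Bmp7 also passed (-0.73 ± 0.22, adjusted p = 0.045), so that 2 of 10 genes stood against 3.35% of all genes. Under the label Id1 (-0.88 ± 0.22, adjusted p = 0.011) and Id3 (-0.56 ± 0.18, adjusted p = 0.043) passed too, and 3 of 10 stood against 7.33%. The wildtype Bmp4 value was -1.46 (adjusted p = 0.054) without PA1 of embryo 2 at E10.5. Bmp7 in wildtype lost the call in 11 of 15 fits without 1 library (-0.75 to -0.64, adjusted p up to 0.117), all but those without PA1 of embryos 1 and 4 at E9.0, PA1 of embryo 2 at E10.5 and PA2 of embryo 2 at E9.0. Id3 lost it in 10 of 14 fits (-0.63 to -0.51, adjusted p up to 0.0942), all but those without PA1 of embryo 1, PA2 of embryos 2 and 3 at E9.0 and PA2 of embryo 3 at E10.5. Wildtype Id1 was at -0.51 (adjusted p = 0.222) and passed with the embryo block (-0.52, adjusted p = 0.0368). A fit of only the compared groups ended the calls of Bmp7 in wildtype (adjusted p = 0.0587) and Id3 under the label (adjusted p = 0.0879), and in edgeR's quasi-likelihood test the Id3 value was -0.55 (adjusted p = 0.055). In this contrast 2 of 5 heart muscle markers passed as lower in wildtype and 0 of 5 under the label. Their median log2 change was -3.48 in wildtype and -3.16 under the label. Of 6 arch ectomesenchyme markers, 2 passed as higher and 1 as lower in wildtype, and 3 and 1 under the label. Of 6 red cell markers 0 passed under either label, with median log2 changes of -1.60 in wildtype and -1.28 under the label. The part of these markers in the changes was not tested.

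Other genes of the pathway passed in both directions. In wildtype 7 of 34 passed with a lower value and 4 with a higher one, and under the label 8 and 3. Msx2 gave -1.89 ± 0.30 and -1.59 ± 0.31, and Id4 gave -1.38 ± 0.28 and -1.05 ± 0.28, in wildtype and under the label. Bambi, a decoy receptor, and Id2, a target, were chosen after their values were seen. Bambi was at 87.1 ± 17.7 CPM in wildtype PA1 (n = 5) and 163 ± 30.4 CPM in PA2 (n = 4) at E9.0. At E10.5 it was at 137 ± 8.90 CPM in PA1 and 70.4 ± 8.16 CPM in PA2 (n = 3 each). Its change was -1.85 ± 0.29 in wildtype (adjusted p = 1e-05) and -1.96 ± 0.29 under the label (adjusted p = 7.9e-06). Id2 changed by -0.74 ± 0.18 and -1.19 ± 0.18. Against this direction, Bmpr1b, a type I receptor, gave 1.31 ± 0.31 and 1.47 ± 0.32, and Rgmb gave 0.92 ± 0.16 and 0.58 ± 0.16. Bmper, Grem1 and Chrd passed under neither label.

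**Figure D4:**
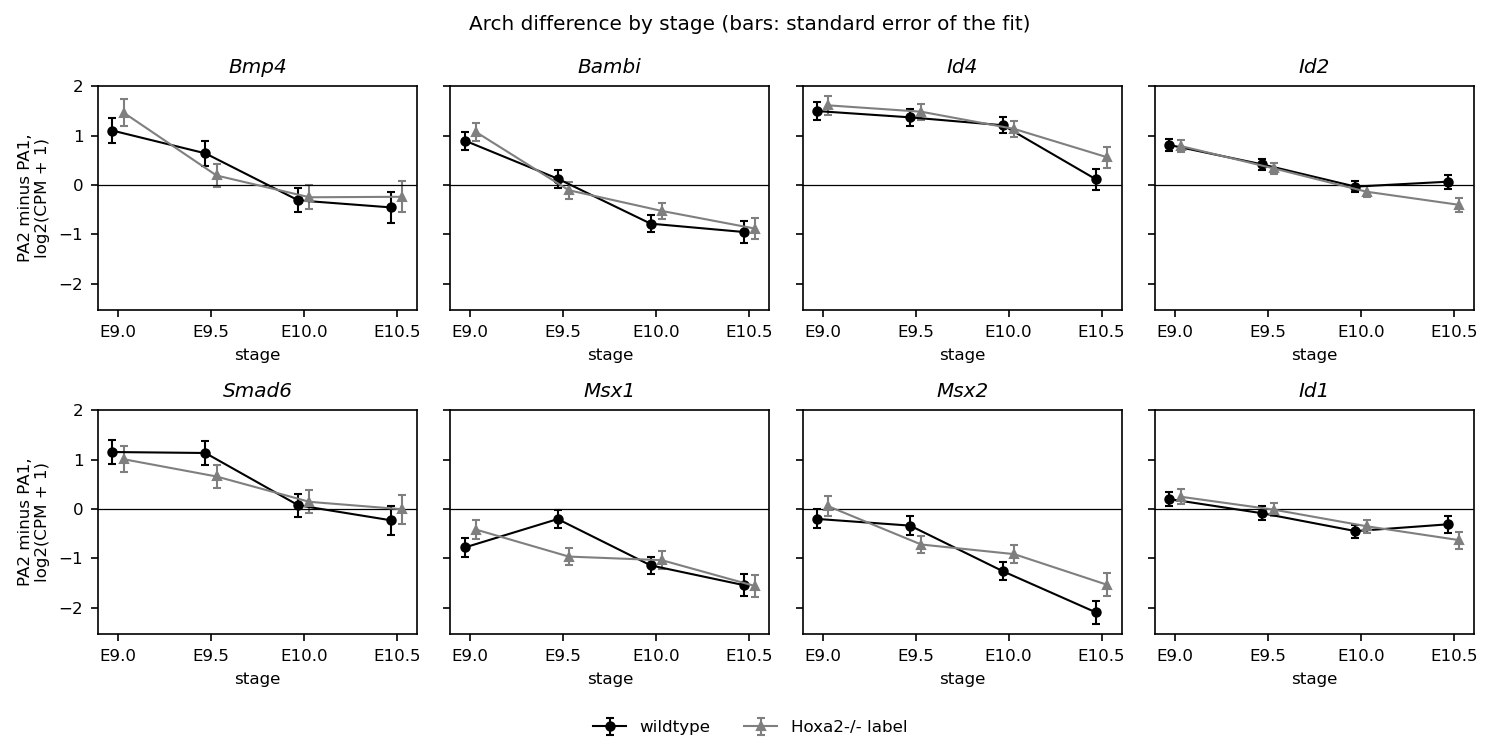
PA2 minus PA1 difference in log2(CPM + 1) (vertical axis) at the 4 stages (horizontal axis) for Bmp4 and 7 other genes of the pathway, black circles for wildtype, grey triangles for the label Hoxa2-/- and bars for the standard error of the fit. Bmp4 goes from 1.10 and 1.46 at E9.0 to below 0 from E10.0 on, and Bambi, Id2, Id4 and Msx2 also descend. Only genes whose arch difference was lower at E10.5 than at E9.0 are drawn. Genes that passed with a higher value, such as Bmpr1b and Rgmb, are not drawn, and Smad6 is shown outside the naming rule.

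From E9.0 to E10.5 the targets Id1 and Id3 and the ligands Bmp2 and Bmp5 fell in both arches under both labels. In wildtype PA1 4 of 10 passed, all lower (Id1, Id3, Bmp2 and Bmp5), against 42.5% of all genes, so that this count is near the background. In wildtype PA2 7 passed against 36.9%, with Bmper higher and Id1, Id3, Bmp2, Bmp4, Bmp5 and Bmp7 lower. In PA1 labelled Hoxa2-/- 6 passed, all lower, against 31.2%, and in PA2 labelled Hoxa2-/- 7 passed, all lower, against 30.9%. Id1 went from 180, 166, 197 and 162 CPM at E9.0 to 63.0, 58.6 and 65.1 CPM at E10.5 in wildtype PA2 (-1.48 ± 0.16, adjusted p = 4e-11). In PA1 Id1 went from 137 to 163 CPM to 74.2 to 82.1 CPM (-0.97 ± 0.15, adjusted p = 4.3e-07). Id3 fell in all 4 series (-0.96 to -0.40), and its smallest fall, in PA1 labelled Hoxa2-/-, was -0.29 (adjusted p = 0.0872) without embryo 1 of E9.0 and -0.33 (adjusted p = 0.0915) without embryo 1 of E10.5. The summed level of epithelial markers, which include keratins, was also lower at E10.5: it was 714 to 1084 CPM in wildtype PA2 at E9.0 and 398 to 447 CPM at E10.5, and 750 to 1121 and 481 to 563 CPM in wildtype PA1. Single markers passed in both directions, with 3 of 8 higher and 4 lower in each wildtype arch, 3 and 5 in PA1 labelled Hoxa2-/- and 2 and 4 in PA2 labelled Hoxa2-/-. Krt14, a keratin of the basal layer, was at 6.67 ± 1.504 CPM at E9.0 (n = 5) and 20.2 ± 2.09 CPM at E10.5 (n = 3) in wildtype PA1. No epithelial marker was at 0 throughout a group. Of 6 endothelial markers 4 passed as lower in each wildtype arch and in PA1 labelled Hoxa2-/-, and 3 in PA2 of that label. As higher, 1 passed in wildtype PA1 and 0 in the other series. The part of the epithelial and endothelial markers in the falls was not tested.

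Bmp4 fell in PA2 of wildtype (-1.20 ± 0.29, adjusted p = 0.00079) and of the label Hoxa2-/- (-1.89 ± 0.29, adjusted p = 7.3e-07), and it passed in neither PA1 series. In wildtype PA1 its change was 0.35 ± 0.28 (adjusted p = 0.32), with 18.4 to 27.1 CPM at E9.0 and 23.1 to 30.8 CPM at E10.5. The difference between the arches in this change is the contrast just given, which passed under both labels. All 5 tested heart muscle markers fell with Bmp4 in PA2 under both labels, and 1 of 5 fell in each PA1 series. Their sum in PA2 went from 51.3 to 828 CPM at E9.0 to 4.58 to 5.59 CPM at E10.5 in wildtype, and from 97.8 to 849 CPM to 7.02 to 10.4 CPM under the label. Of 6 endothelial markers 4 passed as lower in wildtype PA2, 3 in PA2 labelled Hoxa2-/- and 4 in each PA1 series, with 1 passing as higher in wildtype PA1. The part of these markers in the fall of Bmp4 was not tested. Bmp2 fell in all 4 series (-2.33 to -1.08). In wildtype PA1 that fall was -0.67 (adjusted p = 0.174) without embryo 4 of E9.0, and it also missed the threshold without embryo 3 of E9.0 (-1.03) or embryo 1 (-1.06) or 3 (-0.93) of E10.5, with a pseudocount of 5 (adjusted p = 0.0513) and with only the compared groups (adjusted p = 0.0822). Bmp5 fell in all 4 (-1.17 to -0.73), and in wildtype PA1 it lost the call in 6 of 8 fits without 1 library, all but those without embryo 2 of E9.0 and embryo 1 of E10.5 (-0.73 to -0.64, adjusted p up to 0.13). Bmp7 fell in PA2 under both labels (-0.79 and -0.94) and in PA1 labelled Hoxa2-/- (-0.45). The last was -0.36 (adjusted p = 0.0963) without embryo 2 of E9.0, and -0.43 without embryo 2 or 3 of E10.5. Nog passed in 1 series, PA2 labelled Hoxa2-/-, where it fell from 0.986 to 1.70 CPM at E9.0 to 0.280, 0.320 and 0.686 CPM (-0.77 ± 0.20, adjusted p = 0.0023). Of the 34 other pathway genes, 19, 21, 18 and 19 passed in these 4 series, against 42.5%, 36.9%, 31.2% and 30.9% of all genes. Sostdc1, Nbl1, Bmpr1b and Msx1 rose in all 4, and Id4 fell in all 4. Nbl1, an antagonist, went from 6.90 ± 1.06 to 66.0 ± 15.5 CPM in wildtype PA1 (3.07 ± 0.24, adjusted p = 6.8e-16).

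The question of the label was asked within each arch and stage. At E10.0 0 of the 10 genes passed in PA1, against 0% of all genes, and 0 in PA2, against 0.0814%. At an unadjusted p under 0.05 the counts were 1 and 0, and edgeR called 0 and 0, beside 0 and 11 of all genes. Counts at an unadjusted p have no share of all genes beside them and are not read as results about the 10 genes. The log2 differences at E10.0 ranged from -0.20 to 0.46 in PA1 and from -0.29 to 0.16 in PA2, with standard errors up to 0.36. The gene at 0.46 was Chrd, with 1.02 to 1.82 CPM in PA1 labelled Hoxa2-/- and 0.560 to 1.49 CPM in wildtype PA1 (adjusted p = 1). At E9.0 no gene of the 10 passed in either arch, against 2.08% in PA1 and 14% in PA2, with 0 and 2 at an unadjusted p under 0.05. EdgeR called 0 and 0 of the 10 there, beside 365 and 2517 of all genes. At E9.5 none passed, against 23.6% in PA1 and 4.48% in PA2, with 2 and 0 unadjusted. Here edgeR called 1 and 0 of the 10, beside 4539 and 868 of all genes. The edgeR call was Bmp2 in PA1, which had 30.9 CPM in embryo 3 labelled Hoxa2-/- against 2.41 to 3.76 CPM in the other 4 and 1.61 to 4.09 CPM in wildtype. That library also had the highest sum of epithelial markers, 1370 CPM against 672 to 896 CPM in the others of its group. Without it the limma difference fell from 0.82 to 0.22.

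At E10.5 2 of 10 passed in PA1 against 3.05%, and 1 in PA2 against 10.3%, so that the PA2 count is near the background. Bmper was lower under the label in both arches. In PA1 it had 4.15, 2.42 and 1.54 CPM against 9.64, 13.2 and 5.88 CPM in wildtype, and the groups did not overlap (-1.51 ± 0.34, adjusted p = 0.0055). In PA2 it had 10.6, 5.92 and 10.52 CPM against 18.1, 37.8 and 16.1 CPM (-1.26 ± 0.34, adjusted p = 0.011). The PA1 value was -1.27 without wildtype embryo 2 (adjusted p = 0.0717) and -1.27 without embryo 3 of the label (adjusted p = 0.0804). In PA2 it was -0.89 without wildtype embryo 2 (adjusted p = 0.146) and -1.01 without embryo 2 of the label (adjusted p = 0.0961). Neuron markers passed as lower under the label for 1 of 5 in PA1 and 2 of 5 in PA2, with 0 higher. Their sums were 39.9 to 45.3 CPM against 42.1 to 47.2 CPM in wildtype in PA1, and 65.2 to 78.3 CPM against 77.02 to 87.4 CPM in PA2, and their part in the Bmper difference was not tested. Id3 was higher in PA1 labelled Hoxa2-/-, at 301, 355 and 344 CPM against 219, 241 and 257 CPM (0.48 ± 0.14, adjusted p = 0.035), a call lost in 5 of 6 fits without 1 library, all but that without embryo 1 of the label (adjusted p up to 0.199). At every stage but E10.0 the label coincides with the division of libraries by Ski and Irf2bp2, and the label and the division cannot be told apart there. Bmper in wildtype was at 2.75 ± 0.893 CPM in PA1 at E10.0 (n = 5), beside 2.51 ± 0.899 CPM under the label (n = 5). Its E10.5 mean in wildtype PA1 was 9.58 ± 3.68 CPM (n = 3).

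**Figure D5:**
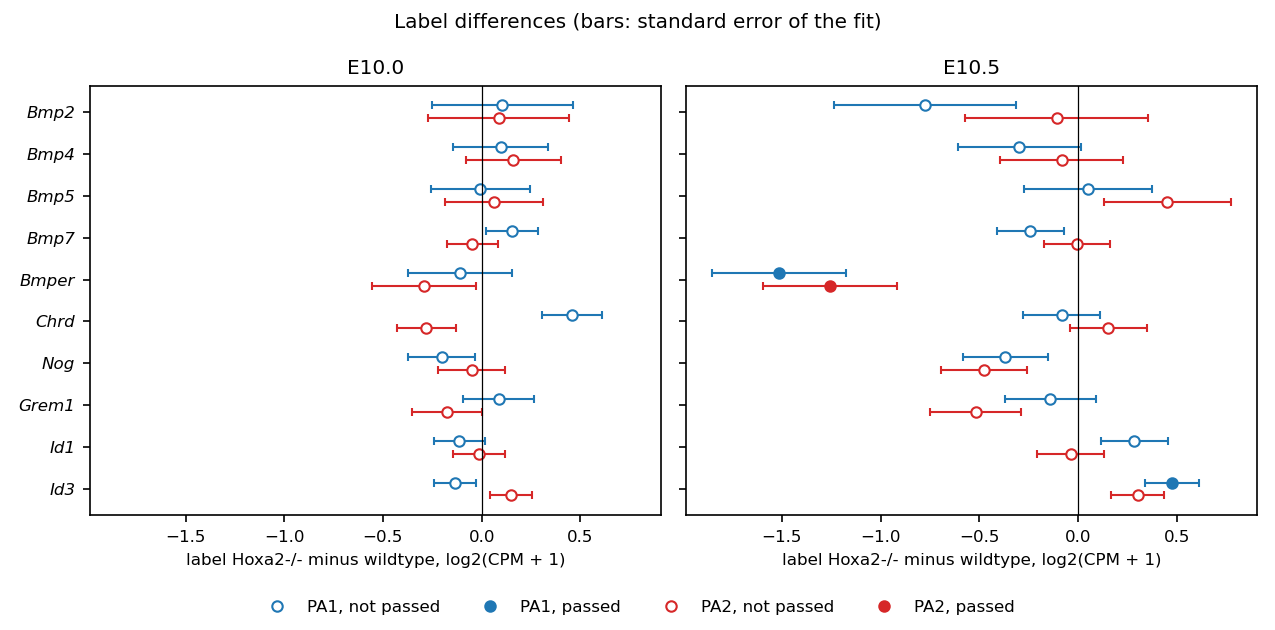
Log2 difference label Hoxa2-/- minus wildtype (horizontal axis, log2(CPM + 1), bars are the standard error of the fit) for the 10 genes at E10.0 (left) and E10.5 (right), PA1 in blue and PA2 in red, filled where the adjusted p was under 0.05. No point is filled at E10.0, and at E10.5 Bmper is filled in both arches (-1.51 and -1.26) and Id3 in PA1 (0.48).

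Bmper rose in wildtype PA2 from E9.0 to E10.5 (0.82 ± 0.32, adjusted p = 0.036) and fell in PA1 labelled Hoxa2-/- (-1.15 ± 0.32, adjusted p = 0.004). The rise was 0.46 (adjusted p = 0.349) without embryo 2 of E10.5 and 0.61 (adjusted p = 0.158) without embryo 2 of E9.0. It also missed the threshold with a pseudocount of 0.25 (adjusted p = 0.053) and with only the compared groups (adjusted p = 0.067). The fall was -0.91 (adjusted p = 0.0531) without embryo 3 of E10.5. The interaction of label and arch passed for 0 of the 10 genes at each stage, beside 0%, 0.0109%, 0.0163% and 0.038% of all genes in stage order. At an unadjusted p under 0.05 there were 0, 0, 1 (Chrd at E10.0) and 0, and edgeR called 0 at each stage, beside 0, 1, 2 and 1 of all genes. The unadjusted counts again have no share of all genes beside them and are not read as results about these genes. Among the 34 other pathway genes 0 passed the label contrast at E10.0 in either arch and 0 passed the interaction at any stage.

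The 10 genes fell into patterns over the 16 group means of log2(CPM + 1), given here as descriptions over groups that share arches, stages and labels. Id1 and Id3 followed each other most closely (Pearson r = 0.95), Bmp2 and Bmp5 had r = 0.87, Bmper and Grem1 0.84, and Chrd and Grem1 0.78. Chrd and Id1 ran opposite ways (r = -0.48). Among 11343 other genes, the 3 most like Bmper were Nsg2 (0.91), Pard3b (0.89) and Rxrg (0.89), and those most like Grem1 were Pard3b (0.96), Klhl32 (0.95) and Nkain4 (0.94). Bmp4 was most like Frmd4b (0.95), Tle6 (0.94) and Klhl31 (0.91), and Bmp7 like Esrp1 (0.94), Cldn7 (0.92) and Serpinb6b (0.92). Id1 was most like Stx3 (0.98), Ppp1r1a (0.97) and Mapk4 (0.97), Id3 like Prrx2 (0.95), Krt18 (0.94) and Stx3 (0.94), and Bmp2 like Dpp4 (0.98), Galnt14 (0.96) and Arhgap1 (0.96). Bmp5 was most like Pald1 (0.96), Prkcd (0.96) and Rhbdf1 (0.95), Chrd like Nr3c1 (0.92), and Nog like Spry2 (0.93).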

How the data were processed

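RNA was measured by sequencing of polyadenylated RNA from hand-dissected arches; cDNA came from the SMART-seq v4 kit and libraries from Nextera XT, per the labels' protocols. The authors deposited 1 table of 21948 Ensembl genes by 68 libraries, whose values are a scaled signal close to CPM (column totals 926298 to 1051959). TopHat2 2.1.1, bcl2fastq 2.18, R 3.3.2 and the build mm10 are named in the submitters' processing notes; the counting program, annotation and strandedness are not given in the sources used here, so overlapping and antisense genes are uncertain. All deposited values (100%) came out as whole reads within 0.01 reads, and these recovered reads served a count test as an alternative. PCR reads without molecular identifiers are not independent molecules.

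Genes at 1 CPM or more in at least 3 libraries were kept (18428). Log2(CPM + 1) was fitted with limma 3.58.1 in R 4.3.3, with 1 mean per group over all 68 libraries and a trended prior; tests were two-sided, adjusted by Benjamini-Hochberg over the kept genes, with a threshold of 0.05. The scale understates the change of low genes. The unit planned for was CPM; the planned limma test also suits the scaled values and was kept. There were 24 planned contrasts and 2 added after values were seen. The members and lists were chosen with earlier results of these data known. Pathway genes are named where they passed at 3 or more stages of an arch contrast under 1 label, passed the E10.0 label contrast or the interaction, or passed 3 of the 4 stage contrasts by 1 or more on average (log2); exceptions are marked. For likeness, the 3 genes with the highest Pearson r were taken among genes with at least 5 CPM in some group.

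The series text calls the samples biological replicates and takes both arches from a single embryo. Libraries of both arches with the same number deviated together (median correlation 0.35 over 33 pairs, 30 above 0.1) against -0.12 over 116 pairs of other numbers, so the number was taken as an embryo. As alternatives, the pseudocount was set to 0.25 or 5, the filter was dropped or raised to 5 CPM, and libraries were scaled by median of ratios; further ones were a fit of the compared groups alone, the embryo block, edgeR 4.0.16 (quasi-likelihood) and each library left out, with 3 sets of libraries left out that were chosen after seeing the data. In wildtype at E9.0 edgeR called 3682 genes between arches and limma 3454. Scripts were tested on simulated data. Symbols and coordinates came from GENCODE M21 (GRCm38), promoters from RefSeq (GRCm38.p6), with 6 of the 10 genes matched; Bmp2, Bmp7, Nog and Id1 were not.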

Additional observations from a re-analysis of the deposited data

Results flagged for a closer look

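In groups of 4 or 5 libraries, the highest or lowest value was set against the range of its group with Dixon's test at the 95% level. Over 120 groups of the 10 genes this marked 11 libraries, where chance marks about 1 in 20 groups. Bmp2 gave 4 of them: 21.05 CPM in PA1 of wildtype embryo 4 at E9.0, 30.9 CPM in PA1 of embryo 3 labelled Hoxa2-/- at E9.5, 1.09 CPM in PA2 of wildtype embryo 3 at E10.0 and 2.44 CPM in PA2 of embryo 4 labelled Hoxa2-/- at E9.5. Bmp4 gave 72.1 CPM in PA2 of wildtype embryo 3 at E9.5 and 23.96 CPM in PA1 of embryo 1 labelled Hoxa2-/- at E10.0. Bmp7 gave 84.4 CPM in PA1 of embryo 2 labelled Hoxa2-/- at E9.5. Chrd gave 1.49 CPM in PA1 of wildtype embryo 2 at E10.0 and 0.910 CPM in PA2 of wildtype embryo 2 at E9.5. Grem1 gave 0.721 CPM in PA1 of wildtype embryo 5 at E10.0, and Id3 gave 549 CPM in PA1 of embryo 1 labelled Hoxa2-/- at E9.0. Yolk sac markers summed to over 90 CPM in PA2 of wildtype embryo 3 at E10.0 (95.5 CPM), the library with the low Bmp2 value.

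The change of the arch difference between E9.0 and E10.5 was tested after the values were seen, and its adjusted p-values do not cover that choice. In wildtype Bmp4 (-1.56) and Bmp7 (-0.73) passed, 2 of 10 genes against 3.35% of all genes. Under the label Hoxa2-/- Bmp4 (-1.70), Id1 (-0.88) and Id3 (-0.56) passed, 3 of 10 against 7.33%. All 5 values are lower for PA2 relative to PA1 at the later stage. With only the compared groups Bmp7 (adjusted p = 0.0587) and Id3 (adjusted p = 0.0879) missed the threshold, and both also did so in most fits without 1 library. Whether the change differs between the labels was not tested.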

How the results depend on the processing

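Of 914 refits of the 54 called results of the 10 genes, 830 kept direction and side of the threshold, 84 kept direction but missed it, and 0 reversed; 73 of the 84 left out 1 library. Among the other 11, the call of Bmper under the label at E10.0 between arches was lost with a pseudocount of 5 (adjusted p = 0.052), and that in wildtype at E9.0 without the libraries of embryos 2 and 3 (adjusted p = 0.0517), as was its rise in wildtype PA2 (adjusted p = 0.167). Median-of-ratios scaling, no filter and the replicate block ended none of these calls. With the embryo as a replicate block the count of called genes rose from 3 to 6 in wildtype at E9.5 (arch contrast), from 1 to 2 in wildtype at E10.5 and from 1 to 2 under the label at E9.5, and it changed no other count by over 1.5 times. Calls over all genes rose with the block in the same contrasts, from 4854 to 5946, from 280 to 421 and from 1766 to 2922. A filter of 5 CPM, under which Chrd, Nog and Grem1 are not tested, left 3 called genes in wildtype at E10.0, 0 at E10.5, and under the label 3 at E9.0, 0 at E9.5 and 1 at E10.0. The wildtype E10.5 count was 2 with a pseudocount of 5, median-of-ratios scaling, only the compared groups and edgeR. The label E9.5 count was 2 with a pseudocount of 5 and without embryo 4, and 3 in edgeR, and the label E10.0 count was 1 with a pseudocount of 5. Label against wildtype in PA1 at E9.5 gave 1 in edgeR and without embryo 4 of the label, and in PA2 at E9.0 it gave 1 (Bmp4) without the libraries over 90 CPM of yolk sac markers. Without the wildtype E9.0 libraries of embryos 2 and 3 the wildtype E9.0 arch count was 1. Over all genes, a fit of only the compared groups moved the label calls in PA2 at E9.0 from 2585 to 15 and the arch calls under the label at E9.0 from 4527 to 1110. The cause was not tested beyond the filter.

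Leaving out 1 library at a time, the arch counts in wildtype ran from 2 to 4 at E9.0, 3 to 5 at E9.5, 4 to 5 at E10.0 and 1 to 2 at E10.5. Under the label they ran from 4 to 6 at E9.0, 1 to 2 at E9.5, 1 to 2 at E10.0 and 0 to 2 at E10.5. Label counts ran from 0 to 1 in PA1 at E9.5, 0 to 2 in PA1 at E10.5, 0 to 1 in PA2 at E9.0 and 0 to 1 in PA2 at E10.5. The stage count ran from 2 to 4 in wildtype PA1, 6 to 7 in wildtype PA2 and 4 to 6 in PA1 labelled Hoxa2-/-. The count for the change of the arch difference ran from 1 to 2 in wildtype and from 2 to 3 under the label. Grem1, Nog and Chrd are near 1 CPM, where few reads limit the precision.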
